A study of Arabidopsis thaliana with 8 samples.

Results

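The core cell cycle genes described here are 10 loci of Arabidopsis thaliana. They were defined by locus and not by a cut on measured values, although earlier results of these data were known. They comprise 5 D-type cyclins, namely CYCD1;1 (AT1G70210), CYCD2;1 (AT2G22490), CYCD3;1 (AT4G34160), CYCD3;2 (AT5G67260) and CYCD3;3 (AT3G50070). The other members are the A-type cyclin CYCA2;3 (AT1G15570), the B-type cyclins CYCB1;1 (AT4G37490) and CYCB1;2 (AT5G06150), and the B-type cyclin-dependent kinases CDKB1;1 (AT3G54180) and CDKB2;1 (AT1G76540). All 10 were among the 27416 gene models with deposited values, and all 10 passed the filter on low values that left 20044 models for testing. Polyadenylated RNA was sequenced from whole Col-0 seedlings kept for 3 days in the cold, exposed to white light for 12 h and then grown for 4 days without light or under blue light (15 µmol per m2 per s), with 1% sucrose in the medium. The 4 groups had 2 libraries each and were the wild type in darkness, the wild type in blue light, the cryptochrome mutant cry1 cry2 in blue light and the auxin receptor mutant tir1 afb123 (tir1 afb1 afb2 afb3) in darkness. CRY1 and CRY2 are blue light receptors, and TIR1 and AFB1 to AFB3 are F-box proteins that bind auxin. All groups shared the accession, the cold and white light steps and the sucrose, and each mutant is analysed here in 1 light condition, so that a mutant is set against the wild type of the same light. The study set out to find genes that depend on cryptochrome signalling in blue light and on the auxin receptors.

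Plant cells divide under the control of cyclin-dependent kinases, whose activity depends on a cyclin partner. D-type cyclins link growth signals, sugar and hormones to entry into DNA synthesis, where their kinases phosphorylate the retinoblastoma protein RBR1 and release E2F factors. A-type cyclins act from DNA synthesis onwards, and B-type cyclins and the plant-specific CDKB kinases act towards mitosis. In a young seedling most divisions occur in the shoot apex, the cotyledon epidermis and the root tip, while the hypocotyl grows mainly by cell expansion.

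Values are RPKM, read counts scaled to the length of the gene model and to a read total of the library. Reads in gene models made up 99.8% to 99.9% of that total. Values are given for each library in the order of its replicate number, or as a mean ± SD of 2 libraries where marked. Fold changes are differences of log2(RPKM + 1) with their standard error (SE), which understate the change of genes with low values. The words rose and fell are kept for genes with a limma adjusted p (Benjamini-Hochberg, over all tested genes) under 0.05. The reads behind a library, recovered from the step between low values, numbered 19.3 M to 23.1 M, and the reads behind a single value of the 10 genes ranged from 62 for CYCB1;1 to 1475 for CYCD1;1. Whether replicate libraries come from independent cultures is not stated in the labels, so the p-values measure only the spread between these libraries, which may be technical. In the mutants CRY2, AFB1 and AFB2 transcripts stood at 0.0777%, 3.16% and 1.55% of the wild type in the same light, whereas CRY1, TIR1 and AFB3 transcripts stood at 72.2%, 77.1% and 50.3%. Most tested genes passed the threshold in each of the 3 main comparisons, so the counts of the 10 genes are given beside those of all genes. The median change of all tested genes was -0.06 for blue light in the wild type, 0.12 for cry1 cry2 in blue light and -0.24 for tir1 afb123 in darkness. Median-ratio scaling of the libraries brought these medians to 0.03, 0.00 and -0.04. The share of calls that were higher moved with it from 45.7% to 52.6% for blue light, from 61.3% to 48.8% for cry1 cry2 and from 34.9% to 47.4% for tir1 afb123, so the majority direction turned in the first pair of comparisons. Alternatives named below are other settings of the same fit, such as scaling, a pseudocount, a filter or leaving out 1 library. RNA of whole seedlings cannot tell fewer cells of a type from less RNA per cell.

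**Figure D1:**
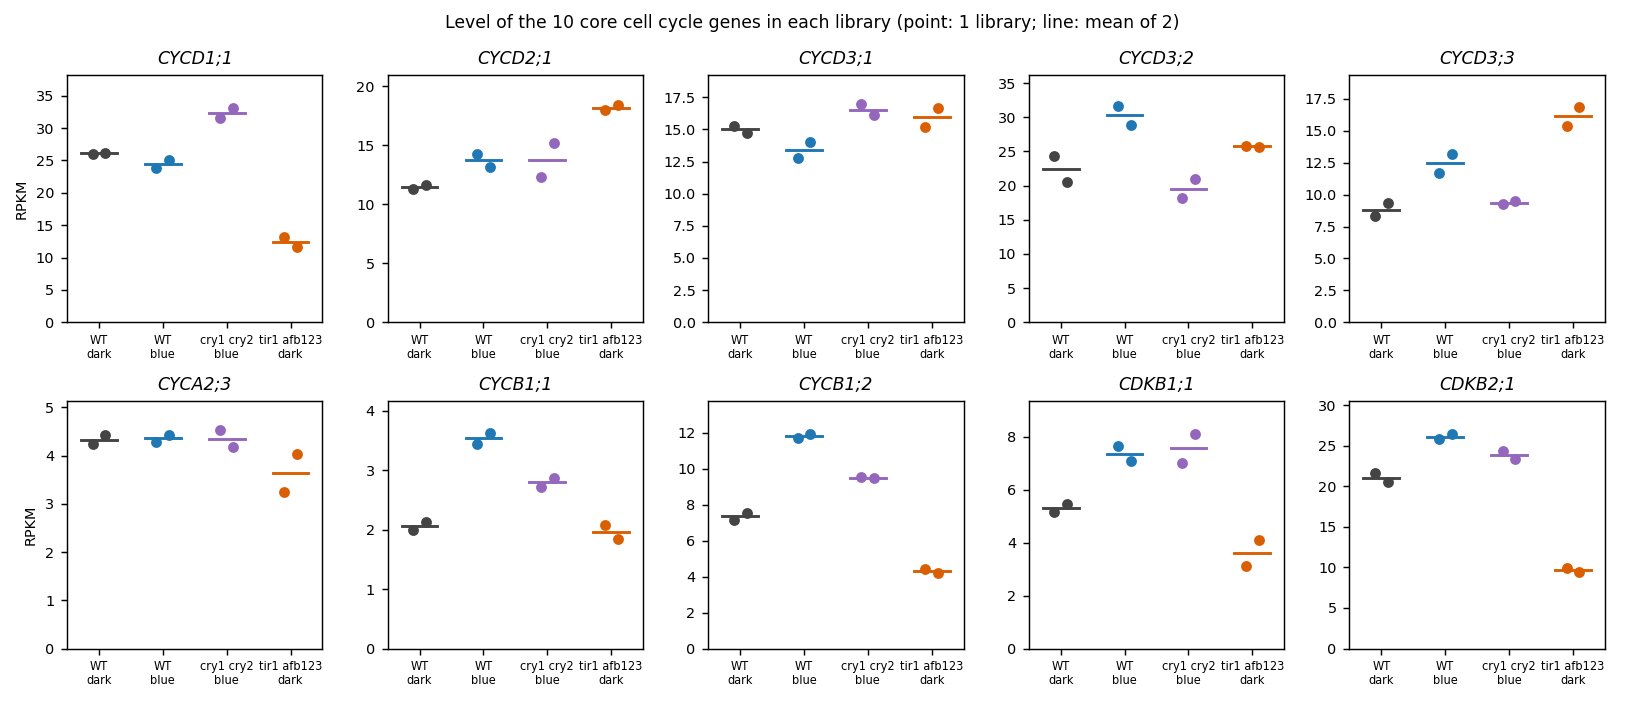
RPKM (vertical axis, from 0) of the 10 core cell cycle genes in the 4 groups, where each point is 1 library and each line the mean of 2. CYCB1;1, CYCB1;2 and CDKB2;1 stood highest in the blue-lit wild type, whereas CYCD2;1 and CYCD3;3 stood highest in dark tir1 afb123.

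In blue light, the wild type had higher levels of 7 of the 10 genes than in darkness, and 0 fell. The B-type cyclins rose most on the log2 scale, by 0.57 and 0.62, followed by a pair of CYCD3 cyclins and CDKB1;1 with 0.41 to 0.45. Of all tested genes 74.4% changed in this comparison, 34.0% upward and 40.4% downward. The median change of the 10 genes was 0.35. No member fell at an unadjusted p under 0.05 or in a fit of voom weights on the recovered reads, each of which gave 0. In blue-lit cry1 cry2 against the blue-lit wild type, 2 of the 10 rose and 4 fell, with a median of -0.07 (1 and 5 under median-ratio scaling), beside 67.9% of all tested genes, 41.6% upward and 26.3% downward. In dark tir1 afb123 against the dark wild type, 2 rose and 4 fell, with a median of -0.13 (4 and 3 under median-ratio scaling, with a median of 0.05), beside 78.9% of all tested genes, 27.5% upward and 51.4% downward. The share of the 10 genes called in each of the 3 comparisons was below that of all genes, and the direction and the individual values carry the description that follows. These comparisons share libraries, the blue-lit or the dark wild type, so their values are set side by side without a measure of likeness.

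**Figure D2:**
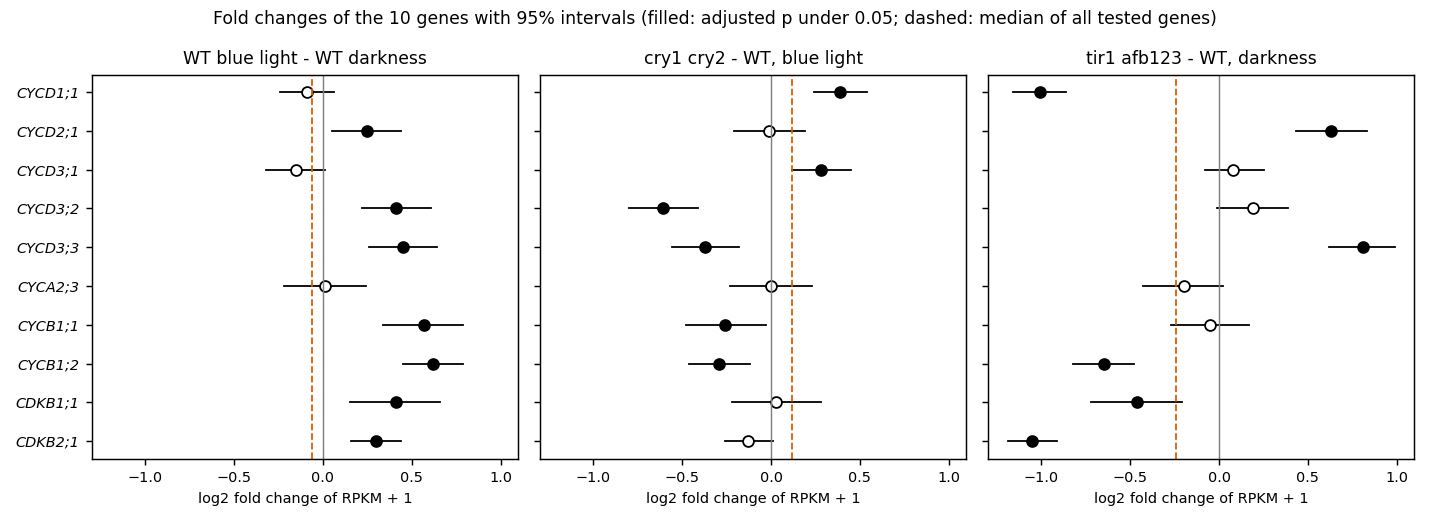
Log2 fold change of RPKM + 1 (horizontal axis) with its 95% interval for each of the 10 genes in 3 comparisons, where filled points passed an adjusted p under 0.05, the solid line marks 0 and the dashed line the median of all tested genes. CYCD3;2 and CYCD3;3 rose in blue light and fell in cry1 cry2, and CYCD1;1 and CDKB2;1 fell by 1.01 and 1.05 in tir1 afb123.

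The 5 D-type cyclins did not move as a block. The CYCD3 group is known to maintain cell division in developing leaves. Its members CYCD3;2 and CYCD3;3 rose in blue light and fell in cry1 cry2. The former measured 24.4 and 20.6 RPKM in the dark wild type, 31.7 and 28.9 in the blue-lit wild type, 18.2 and 20.9 in cry1 cry2, and 25.8 and 25.7 in tir1 afb123. Both blue-lit wild-type libraries lay above all other libraries, and the cry1 cry2 libraries overlapped with those of the dark wild type. The group means were 22.5 ± 2.67, 30.3 ± 2.02, 19.5 ± 1.97 and 25.8 ± 0.0932 (SD, n = 2). CYCD3;2 rose by 0.41 (SE 0.09, limma adjusted p = 0.00134) in blue light and fell by 0.61 (SE 0.09, limma adjusted p = 9.51e-05) in cry1 cry2. Its difference of 0.19 in tir1 afb123 missed the threshold (limma adjusted p = 0.0694, 95% interval -0.01 to 0.39), and passed it with 0.43 (limma adjusted p = 0.000869) under median-ratio scaling and with 0.31 (limma adjusted p = 0.0134) without dark wild-type replicate 1. The gene overlaps AT5G67265 on the opposite strand by 220 bases, whose mean level was 0 to 0.193 RPKM in the 4 groups.

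CYCD3;3 measured 8.34 and 9.32 RPKM in the dark wild type, 11.7 and 13.2 in the blue-lit wild type, 9.23 and 9.52 in cry1 cry2, and 15.4 and 16.9 in tir1 afb123. The tir1 afb123 libraries were the highest, the blue-lit wild type came next without overlap, and cry1 cry2 overlapped with the dark wild type. It rose by 0.45 (SE 0.09, limma adjusted p = 0.000541) in blue light. It fell by 0.37 (SE 0.09, limma adjusted p = 0.00247) in cry1 cry2. In tir1 afb123 it rose by 0.81 (SE 0.09, limma adjusted p = 3.97e-06), the largest rise of the 10 genes there. Against the dark wild type the blue-lit cry1 cry2 libraries differed by 0.08 (limma adjusted p = 0.49, 95% interval -0.11 to 0.27) and by -0.19 for CYCD3;2 (limma adjusted p = 0.104, 95% interval -0.39 to 0.00). The latter value was -0.31 without dark wild-type replicate 2 and passed the threshold there (limma adjusted p = 0.03). In that comparison both genotype and light differ.

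CYCD3;1, the cytokinin-induced member of the same group, had another pattern. It measured 15.3 and 14.7 RPKM in the dark wild type, 12.8 and 14.0 in the blue-lit wild type, 17.0 and 16.1 in cry1 cry2, and 15.2 and 16.7 in tir1 afb123. The blue-lit wild type was lowest and cry1 cry2 did not overlap with it, while tir1 afb123 overlapped with the dark wild type and with cry1 cry2. The difference in blue light was -0.15 (limma adjusted p = 0.0876, 95% interval -0.32 to 0.01). It rose by 0.28 in cry1 cry2 (SE 0.07, limma adjusted p = 0.00557), a call lost under median-ratio scaling with 0.15 (limma adjusted p = 0.123) and without blue-lit wild-type replicate 1 (limma adjusted p = 0.0556). In tir1 afb123 the difference was 0.08 (limma adjusted p = 0.323), and it passed with 0.32 under median-ratio scaling (limma adjusted p = 0.00326). Its gene model overlaps AT4G34150 on the same strand by 40 bases, whose mean level was 143 RPKM in tir1 afb123 and 29.3 to 31.6 RPKM in the other groups. The part of that neighbour in these values was not tested.

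CYCD1;1, a D-type cyclin of early cell cycle entry, was high in cry1 cry2 and low in tir1 afb123. Its levels were 26.0 and 26.2 RPKM in the dark wild type, 23.9 and 25.0 in the blue-lit wild type, 31.6 and 33.1 in cry1 cry2, and 13.2 and 11.7 in tir1 afb123. No pair of groups overlapped, although the wild-type groups lay close together. In tir1 afb123 it fell by 1.01 (SE 0.07, limma adjusted p = 7.4e-08, 95% interval -1.16 to -0.86), to 0.477 times its dark wild-type mean. It rose by 0.39 in cry1 cry2 against the blue-lit wild type (SE 0.07, limma adjusted p = 0.000333) and by 0.30 against the dark wild type (SE 0.07, limma adjusted p = 0.00463). The difference of -0.09 in blue light missed the threshold (limma adjusted p = 0.228). The gene overlaps AT1G70209 on the opposite strand by 144 bases, whose mean level was 0.15 to 0.485 RPKM in the 4 groups.

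CYCD2;1, known for its response to sucrose, was highest in tir1 afb123. It measured 11.3 and 11.6 RPKM in the dark wild type, 14.3 and 13.2 in the blue-lit wild type, 12.3 and 15.2 in cry1 cry2, and 18.0 and 18.4 in tir1 afb123. Both tir1 afb123 libraries exceeded all others, and the cry1 cry2 libraries lay on either side of the blue-lit wild type. It rose by 0.63 in tir1 afb123 (SE 0.09, limma adjusted p = 5.44e-05), and the value was 0.61 to 0.86 over the alternatives. Its rise of 0.25 in blue light (SE 0.09, limma adjusted p = 0.0284) was lost in 4 of 19 alternatives, among them leaving out dark wild-type replicate 1 (limma adjusted p = 0.102), dark wild-type replicate 2 (0.0624) and blue-lit wild-type replicate 1 (0.158). The difference in cry1 cry2 was -0.01 (limma adjusted p = 0.957, 95% interval -0.21 to 0.19). Over the 8 libraries CYCD3;3 ran with this gene, with a Pearson r of 0.85, and opposite to CYCD1;1, with an r of -0.88. These values describe 4 groups of 2 libraries, in which libraries of a group share their treatment, and are given without a p.

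CYCA2;3, an A-type cyclin known to restrain endoreduplication together with CDKB1;1, was nearly level across 3 of the groups. It measured 4.23 and 4.43 RPKM in the dark wild type, 4.29 and 4.42 in the blue-lit wild type, 4.52 and 4.18 in cry1 cry2, and 3.25 and 4.03 in tir1 afb123. The first 3 groups overlapped, and both tir1 afb123 libraries lay below them. The 95% interval of the difference ran from -0.22 to 0.24 in blue light and from -0.23 to 0.23 in cry1 cry2. In tir1 afb123 the difference was -0.20 (SE 0.10, limma adjusted p = 0.0917), and without tir1 afb123 replicate 2 it was -0.32 (limma adjusted p = 0.022). The gene overlaps IAA5 on the opposite strand by 48 bases, and the sources used here do not say whether counting used strand. IAA5 averaged 5.11, 0.546, 7.63 and 1.21 RPKM in the same order of groups, and its part in these values was not tested.

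Promoters of many mitotic genes hold the mitosis-specific activator element, whose core AACGG is bound by MYB3R factors. The 250 bases before the gene start are shown for both B-type cyclins, from the TAIR10.1 genome and the gene starts of its RefSeq annotation, because each holds several cores. The sequences are written 5′ to 3′ on the strand of the gene, and capitals mark AACGG or its reverse complement CCGTT. CYCB1;1 lies at chr4:17621886-17624308 on the minus strand, with the promoter stretch at chr4:17624309-17624558, and CYCB1;2 at chr5:1859279-1861703 on the minus strand, with the stretch at chr5:1861704-1861953.
CYCB1;1: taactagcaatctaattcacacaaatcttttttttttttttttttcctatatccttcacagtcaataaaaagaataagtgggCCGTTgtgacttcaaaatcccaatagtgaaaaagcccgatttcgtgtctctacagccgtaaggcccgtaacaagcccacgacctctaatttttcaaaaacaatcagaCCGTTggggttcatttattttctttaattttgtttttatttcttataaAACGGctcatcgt
CYCB1;2: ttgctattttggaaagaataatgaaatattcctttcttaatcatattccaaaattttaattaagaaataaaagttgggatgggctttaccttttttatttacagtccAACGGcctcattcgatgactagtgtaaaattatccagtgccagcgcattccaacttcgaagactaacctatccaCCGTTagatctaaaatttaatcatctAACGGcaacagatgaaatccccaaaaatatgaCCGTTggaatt
The first has 3 cores, which end 164, 57 and 9 bases before the gene start, and the other has 4, which end 139, 65, 39 and 7 bases before it. On either strand 20.6% of the 26713 promoters of measured genes hold the core, and 3.62% hold at least 2. A match is a description of the letters and not evidence of a bound site.

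CYCB1;1, widely used as a marker of dividing cells, was the lowest of the 10 genes. It measured 2.00 and 2.12 RPKM in the dark wild type, 3.44 and 3.63 in the blue-lit wild type, 2.72 and 2.87 in cry1 cry2, and 2.08 and 1.84 in tir1 afb123. The blue-lit wild type was highest, cry1 cry2 was intermediate without overlap, and tir1 afb123 overlapped with the dark wild type. It rose by 0.57 in blue light (SE 0.10, limma adjusted p = 0.000342), from 62 and 69 reads to 127 and 121. It fell by 0.26 in cry1 cry2 (SE 0.10, limma adjusted p = 0.0419), a call lost in 9 of 18 alternatives, where the adjusted p ranged from 0.0072 to 0.164, among them leaving out any replicate of the dark wild type, the blue-lit wild type or cry1 cry2. Against the dark wild type it rose by 0.31 in cry1 cry2 (SE 0.10, limma adjusted p = 0.0296), a call lost in 4 of 18 alternatives, namely leaving out either replicate of the dark wild type or of cry1 cry2. Its difference in tir1 afb123 was -0.05 (limma adjusted p = 0.662, 95% interval -0.27 to 0.17).

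CYCB1;2 measured 7.15 and 7.53 RPKM in the dark wild type, 11.7 and 11.9 in the blue-lit wild type, 9.54 and 9.46 in cry1 cry2, and 4.43 and 4.19 in tir1 afb123. The 4 groups did not overlap, in the order blue-lit wild type, cry1 cry2, dark wild type and tir1 afb123. It rose by 0.62 in blue light (SE 0.08, limma adjusted p = 1.95e-05), fell by 0.29 in cry1 cry2 (SE 0.08, limma adjusted p = 0.00638) and fell by 0.65 in tir1 afb123 (SE 0.08, limma adjusted p = 1.05e-05). It rose by 0.33 in cry1 cry2 against the dark wild type (SE 0.08, limma adjusted p = 0.00532). All 4 calls held in each alternative. The tir1 afb123 intervals of the pair, -0.27 to 0.17 and -0.82 to -0.48, did not overlap, and the difference between the genes was not tested.

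CDKB1;1, a kinase needed for the last symmetric division of the stomatal lineage, measured 5.16 and 5.46 RPKM in the dark wild type, 7.66 and 7.08 in the blue-lit wild type, 7.02 and 8.11 in cry1 cry2, and 3.11 and 4.09 in tir1 afb123. The blue-lit groups overlapped with each other and lay above the dark wild type, which lay above tir1 afb123. It rose by 0.41 in blue light (SE 0.11, limma adjusted p = 0.00716), a call lost without blue-lit wild-type replicate 1 (0.36, limma adjusted p = 0.0519). It rose by 0.44 in cry1 cry2 against the dark wild type (SE 0.11, limma adjusted p = 0.0101), a call lost without dark wild-type replicate 1 (0.0569) and without cry1 cry2 replicate 2 (0.0936). Against the blue-lit wild type cry1 cry2 differed by 0.03 (limma adjusted p = 0.824, 95% interval -0.22 to 0.28). In tir1 afb123 it fell by 0.46 (SE 0.11, limma adjusted p = 0.00293), and the call was lost under median-ratio scaling with -0.26 (limma adjusted p = 0.059). The gene overlaps AT3G54190 on the opposite strand by 71 bases, which averaged 42.0, 29.7, 39.7 and 27.5 RPKM in the 4 groups, and its part was not tested.

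CDKB2;1, a mitotic kinase needed for the organisation of the shoot apical meristem, had the largest fall of the 10 genes in tir1 afb123. It measured 21.6 and 20.5 RPKM in the dark wild type, 25.8 and 26.4 in the blue-lit wild type, 24.3 and 23.4 in cry1 cry2, and 9.88 and 9.42 in tir1 afb123. The 4 groups did not overlap, and tir1 afb123 stood far below the rest. It fell by 1.05 in tir1 afb123 (SE 0.06, limma adjusted p = 2.62e-08), to 0.459 times the dark wild-type mean, and the fall was 0.81 relative to the median of all genes. It rose by 0.30 in blue light (SE 0.06, limma adjusted p = 0.00113). The difference of -0.13 in cry1 cry2 missed the threshold (limma adjusted p = 0.0941), and passed it with -0.27 under median-ratio scaling (limma adjusted p = 0.00253). The rise of 0.17 against the dark wild type (limma adjusted p = 0.0474) was lost in 11 of 19 alternatives, among them leaving out any replicate of the dark wild type, the blue-lit wild type or cry1 cry2. The gene overlaps AT1G76530 on the opposite strand by 44 bases, a neighbour that averaged 0.018, 2.51, 0.063 and 0 RPKM in the order of groups above, highest in the same group as this kinase, and its part was not tested. The paralogs CDKB1;2 and CDKB2;2 are close in sequence to these kinases, and reads shared by a pair may have been split. CDKB1;2 rose by 0.46 in blue light and fell by 0.91 in tir1 afb123. CDKB2;2 differed by only 0.03 in blue light (limma adjusted p = 0.828) and fell by 0.69 in tir1 afb123.

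Over the 8 libraries the 6 pairs of B-type cyclins and kinases had a Pearson r from 0.73 (CYCB1;1 with CDKB2;1) to 0.96 (CYCB1;2 with CDKB2;1). The D-type cyclin CYCD1;1 had an r of 0.92 with the latter kinase and 0.84 with CDKB1;1, so such values were not limited to these pairs. Among 14483 or 14484 tested genes with a mean of at least 5 RPKM, those most like CYCB1;2 were CYP79B2 (r = 0.999), PANS1 (0.998) and 3xHMG-box2 (0.997). PANS1 is a protector of sister chromatid cohesion, and CYP79B2 is an enzyme of indole glucosinolate synthesis. Those most like the kinase CDKB2;1 were SWEET17 (0.998), GXM2 (0.997) and LAC7 (0.997). For CYCD3;2 they were TSB1 (0.989), emb1417 (0.987) and LPA19 (0.978), and for CYCA2;3 OGG1 (0.942), AT3G13780 (0.929) and AT1G65270 (0.918). These were picked as the highest of all those correlations over 4 groups of 2 libraries, and are a description only.

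A further 102 genes of the cell cycle were listed by role, of which 99 were tested. In blue light 59 rose and 10 fell (59.6% and 10.1%), with a median change of 0.39, against 34.0% and 40.4% of all tested genes and their median of -0.06. In cry1 cry2 16 rose and 38 fell (16.2% and 38.4%), with a median of -0.12, against 41.6% and 26.3% of all tested genes and their median of 0.12. In tir1 afb123 26 rose and 51 fell (26.3% and 51.5%), with a median of -0.29, which is close to the 27.5%, 51.4% and -0.24 of all tested genes. With a minimum of 5 RPKM, which leaves fewer genes to test, 34 rose in blue light and 23 fell in cry1 cry2. Median-ratio scaling left 9 rises in cry1 cry2.

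**Figure D3:**
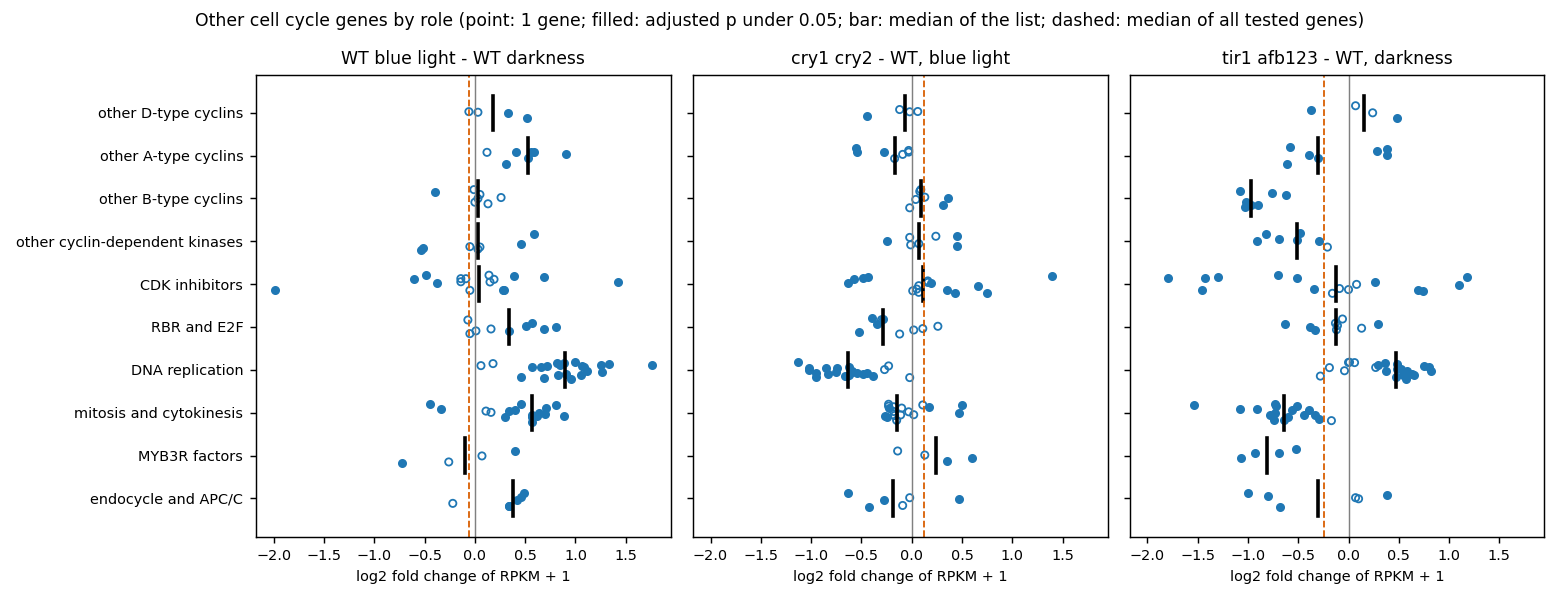
Log2 fold change of RPKM + 1 (horizontal axis) of the tested genes of each list in 3 comparisons, where a point is 1 gene, filled points passed an adjusted p under 0.05, black bars are list medians and dashed lines the median of all tested genes. The DNA replication list lay at 0.90, -0.63 and 0.47 in turn, and the mitosis list at 0.57, -0.15 and -0.64.

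Genes of DNA replication and genes of mitosis went different ways in tir1 afb123. Among all tested genes 34.0% rose in blue light, 26.3% fell in cry1 cry2 and 27.5% rose in tir1 afb123. Of 22 replication genes, 20 rose in blue light (90.9%), 19 fell in cry1 cry2 (86.4%) and 15 rose in tir1 afb123 (68.2%). The medians of the list were 0.90, -0.63 and 0.47. None fell in blue light or rose in cry1 cry2, at an adjusted or unadjusted p or with voom weights (0 each), and in tir1 afb123 0 fell at the adjusted threshold, 1 at an unadjusted p and 1 with voom weights. RNR2A and RNR1, subunits of the ribonucleotide reductase that makes deoxynucleotides, rose by 1.76 (SE 0.08) and 1.33 (SE 0.09) in blue light. RNR2A measured 3.74 and 3.70 RPKM in the dark wild type, 14.6 and 15.4 in the blue-lit wild type, 6.02 and 6.68 in cry1 cry2, and 7.06 and 6.86 in tir1 afb123, so that the blue-lit wild type stood above every other library. RNR2A fell by 1.13 and the replication clamp gene PCNA1 by 1.02 in cry1 cry2. TSO2, a further reductase subunit, rose by 0.82 and RNR2A by 0.75 in tir1 afb123. Summed over the list, replication genes reached 122 and 124 RPKM in the dark wild type, 270 and 284 in the blue-lit wild type, 158 and 160 in cry1 cry2, and 194 and 183 in tir1 afb123.

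Of 17 genes of mitosis and cytokinesis, 13 rose and 2 fell in blue light (76.5% and 11.8%, against 34.0% and 40.4% of all tested genes). In cry1 cry2 3 rose and 3 fell (17.6% each, against 41.6% and 26.3%), and in tir1 afb123 16 fell (94.1%, against 51.4%). In tir1 afb123 0 rose, at an adjusted or unadjusted p or with voom weights. In cry1 cry2 the falls numbered 1 to 3 when single libraries were left out (1 without either replicate of the blue-lit wild type or of cry1 cry2), 8 under median-ratio scaling, 6 under upper-quartile scaling and 5 with voom weights. CDC20.1, an activator of the anaphase-promoting complex, rose by 0.89 in blue light (SE 0.08), and reads may be split with its close copy CDC20.2. MAD2, a spindle checkpoint gene, fell by 1.54 in tir1 afb123 (SE 0.10), and the Aurora kinase gene AUR1 fell by 0.91 (SE 0.08). The summed level was 169 and 164 RPKM in the dark wild type, 217 and 224 in the blue-lit wild type, 219 and 217 in cry1 cry2, and 92.7 and 92.0 in tir1 afb123. The blue-lit groups overlapped in that sum, whereas for replication genes cry1 cry2 lay well below the blue-lit wild type. CKS1, the highest gene in the mitosis sum of both blue-lit groups, averaged 48.8 RPKM in the wild type and 54.9 in cry1 cry2. Of the 17 changes in cry1 cry2, 12 lay below 0 and 5 above, with a median of -0.15.

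The other 7 B-type cyclins all fell in tir1 afb123, with a median of -0.97, also under both scalings. CYCB1;3 fell by 1.08 and CYCB1;4 by 1.03. In blue light 1 of these 7 fell and 0 rose, at an adjusted or unadjusted p and with voom weights, whereas both member B-type cyclins rose. Of 4 MYB3R genes all 4 fell in tir1 afb123, with a median of -0.81. Among all tested genes 34.0% rose and 40.4% fell in blue light, and 26.3% fell in cry1 cry2. In tir1 afb123 27.5% rose and 51.4% fell. Of 7 tested further A-type cyclins, 6 rose in blue light, 3 fell in cry1 cry2, and 3 rose and 4 fell (2 under median-ratio scaling) in tir1 afb123. CYCA3;2 among them rose by 0.59 in blue light and fell by 0.55 in cry1 cry2. CYCA2;1 and CYCA3;3 did not pass the filter, nor did CYCD7;1 among the D-type cyclins, of whose 4 tested genes 2 rose in blue light.

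CDKA;1, the kinase partner of cyclins throughout the cycle, was highest in the dark wild type. It measured 54.2 and 55.3 RPKM there, 36.6 and 38.0 in the blue-lit wild type, 51.5 and 50.8 in cry1 cry2, and 31.1 and 29.9 in tir1 afb123. It fell by 0.54 in blue light (limma adjusted p = 2.25e-06), rose by 0.45 in cry1 cry2 (limma adjusted p = 1.6e-05) and fell by 0.82 in tir1 afb123 (limma adjusted p = 4.66e-08), with an SE of 0.05 each. Among 16 inhibitors of these kinases, 5 rose and 4 fell in blue light, 6 rose and 4 fell in cry1 cry2 (3 and 4 under median-ratio scaling), and 5 rose and 7 fell in tir1 afb123 (6 and 5). In blue light that was 31.2% and 25.0%, against 34.0% and 40.4% of all tested genes. In cry1 cry2 it was 37.5% and 25.0%, against 41.6% and 26.3%. In tir1 afb123 it was 31.2% and 43.8%, against 27.5% and 51.4%. SIM, which promotes endoreduplication in trichomes, measured 178 and 166 RPKM in the dark wild type, 41.6 and 43.2 in the blue-lit wild type, 117 and 109 in cry1 cry2, and 60.8 and 62.7 in tir1 afb123. It fell by 1.99 in blue light, the largest change of the inhibitors there, rose by 1.39 in cry1 cry2 and fell by 1.46 in tir1 afb123. KRP4 fell by 0.61, rose by 0.75 and fell by 1.30 in the same order. SMR1 rose by 0.69, fell by 0.63 and rose by 0.26, whereas KRP2 rose by 0.74 and KRP1 by 0.69 in tir1 afb123.

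Of 9 genes of RBR1 and the E2F group, 5 rose in blue light, 4 fell in cry1 cry2, and 1 rose and 3 fell (1 under median-ratio scaling) in tir1 afb123. That was 55.6% upward in blue light and 44.4% downward in cry1 cry2, against 34.0% and 26.3% of all tested genes. In tir1 afb123 it was 11.1% upward and 33.3% downward, against 27.5% and 51.4%. RBR1 rose by 0.29 in tir1 afb123 (SE 0.09). Of 6 genes of the endocycle and the anaphase-promoting complex, 5 rose in blue light (83.3%, against 34.0% of all tested genes). CCS52B, an activator of that complex in dividing cells, rose by 0.49 in blue light and fell by 1.00 in tir1 afb123, whereas CCS52A1, which promotes endoreduplication, rose by 0.34 in blue light and by 0.38 in tir1 afb123.

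E2F factors bind sites such as TTTCCCGC and TTTGGCGC, which were searched on both strands in the same 250 bases. A stretch of 28 bases of the MCM3 promoter is shown as an example from the replication list, at chr5:18773860-18773887 on the minus strand, from the same genome. It is written 5′ to 3′ on the strand of the gene, and capitals mark the reverse complement of TTTGGCGC.
MCM3: ggaaatcaaacGCGCCAAAcaagcgcgt
MCM3, a subunit of the replicative helicase, rose by 1.26 in blue light, fell by 1.02 in cry1 cry2 and rose by 0.58 in tir1 afb123. Of the 22 replication promoters 10 hold either E2F site (45.5%), against 0.958% of all 26713. Those of ORC1A and ORC2 are among them, and these genes were not called in blue light (0.06 and 0.18). The other genes with a site rose there, and so did every replication gene without a site. RNR2A and RNR1, with the largest rises of the list in blue light, had no match. The part of the sites in these changes was not tested. The AACGG core was in 58.8% of the mitosis promoters, 57.1% of the other B-type cyclin promoters and 18.2% of the replication promoters.

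**Figure D4:**
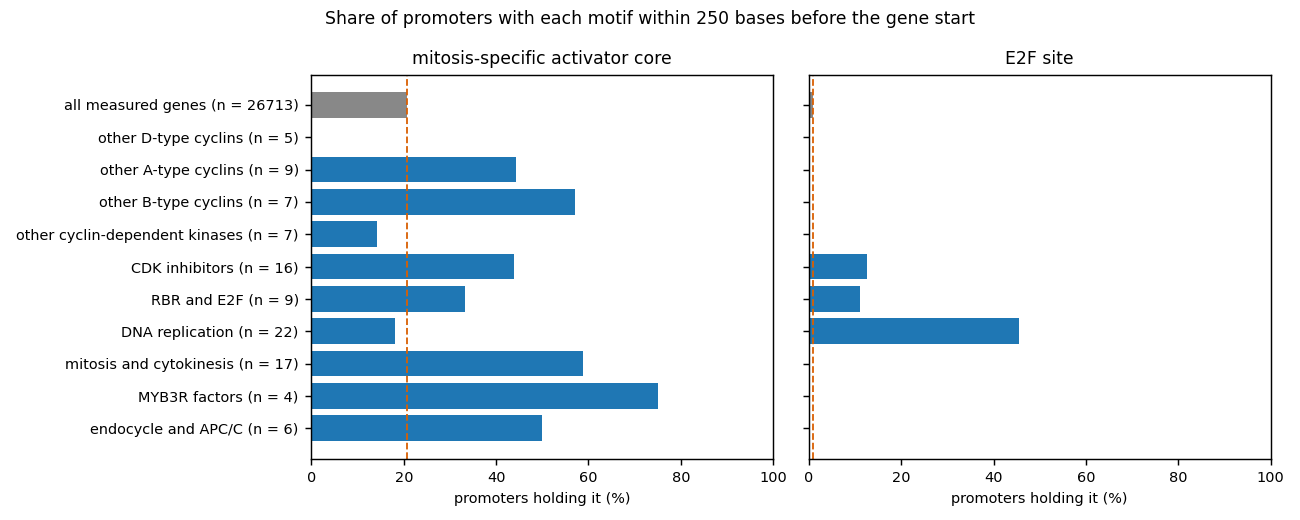
Share of promoters (horizontal axis, percent) that hold the mitosis-specific activator core AACGG or an E2F site in the 250 bases before the gene start, where bars are gene sets and the dashed line the share in all 26713 promoters. The E2F site stood at 45.5% in the replication list and at 0.958% in all promoters, and the core at 57.1% in the other B-type cyclins and at 20.6% in all promoters.

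Markers of tissues that hold dividing cells were measured beside these genes, and their part in the results was not tested. For comparison, 34.0% of all tested genes rose and 40.4% fell in blue light. The shares were 41.6% and 26.3% in cry1 cry2, and 27.5% and 51.4% in tir1 afb123. Of 4 tested root meristem markers 2 fell in blue light, and in tir1 afb123 1 rose and 1 fell. Their summed level in the 7 listed genes was 42.7 and 46.9 RPKM in the dark wild type, 38.4 and 38.3 in the blue-lit wild type, 45.8 and 46.8 in cry1 cry2, and 31.7 and 30.0 in tir1 afb123. In tir1 afb123 ACR4 rose by 0.46 and SHR fell by 1.53, whereas SCR and WOX5 were not called. SHR averaged 19.1 RPKM in the dark wild type and 5.95 in tir1 afb123. PLT1, which defines the root stem cell niche, and PLT2 did not pass the filter on low values. PLT1 was at 0.509 and 0.486 RPKM in the dark wild type and at 0.0211 and 0.0658 in tir1 afb123. PLT2 was at 0.34 and 0.717 and at 0 and 0.0658. All 4 tested lateral root founder markers fell in tir1 afb123, where the sum over 5 genes was 1.81 and 2.30 RPKM against 13.2 and 12.8 in the dark wild type, 6.55 and 5.71 in the blue-lit wild type, and 11.7 and 10.1 in cry1 cry2. Of 9 stomatal lineage markers 6 rose and 1 fell in blue light, and 1 rose and 6 fell in cry1 cry2. In tir1 afb123 7 rose, and the sum over all 9 was 54.1 and 56.8 RPKM, against 34.0 and 32.6 in the dark wild type. That sum was 49.7 and 49.6 in the blue-lit wild type, and 39.8 and 46.0 in cry1 cry2. SCRM was its largest part in the dark wild type and in cry1 cry2, with means of 20.7 and 24.4 RPKM. This gene alone fell in blue light, by 0.19, and alone rose in cry1 cry2, by 0.42. Of 8 tested shoot apex and leaf primordium markers 6 rose and 1 fell in blue light, 2 rose and 4 fell in cry1 cry2, and 3 rose and 3 fell in tir1 afb123. Their sum over 11 genes was 62.9 and 63.5 RPKM in the dark wild type, 85.8 and 83.4 in the blue-lit wild type, 87.4 and 90.9 in cry1 cry2, and 55.3 and 55.4 in tir1 afb123. From the blue-lit wild type to cry1 cry2 the means of KNAT1 went from 22.2 to 37.3 RPKM and of STM from 3.91 to 8.75. CLV1 went from 23.7 to 14.4, and ANT, LSH3 and CUC1 also fell. STM fell by 0.71 in blue light. WUS and CLV3, which define the stem cell region, were near 0. All 4 mesophyll markers rose in blue light, fell in cry1 cry2 and rose in tir1 afb123. Their sums were 4150 and 3840 RPKM in the dark wild type, 16300 and 16400 in the blue-lit wild type, 3070 and 3620 in cry1 cry2, and 12700 and 13700 in tir1 afb123. RBCS1A made up most of these sums, with a mean of 3380 RPKM in the dark wild type and 1890 in cry1 cry2. Against the dark wild type 3 of the 4 rose in cry1 cry2 and only RBCS1A fell.

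In blue-lit cry1 cry2 against the dark wild type, 5 of the 10 genes rose and 0 fell, with a median of 0.21, beside 41.6% of all tested genes, 25.1% upward and 16.5% downward. At an unadjusted p 6 rose and 0 fell, and voom weights gave the same 6 and 0. The genes that rose were CYCD1;1, both B-type cyclins and both kinases. The count was 2 without dark wild-type replicate 1 or cry1 cry2 replicate 2 and 3 without dark wild-type replicate 2. Of the mitosis list 12 of 17 rose, with a median of 0.37, and of the replication list 9 of 22, with a median of 0.23 (5 without cry1 cry2 replicate 1).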

How the data were processed

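Each of the 8 libraries had a deposited table of RPKM by gene model (unit per the file headers). Alignment used Bowtie2 2.2.2 and the TAIR10 genome, per the submitters' processing notes. The annotation release and the assignment of reads to genes are not given in the sources used here. Poly(A) RNA was purified with oligo(dT) beads, per the labels' protocols. Values were whole multiples of a single read in 22704 of 22704 models above 0 in at least 5 libraries (tolerance 0.01 reads), which gave totals of 19.3 M to 23.1 M reads. Models were matched by locus to RefSeq symbols of TAIR10.1 (26719 of 27416).

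log2(RPKM + 1) was tested with limma 3.58.1 (eBayes with trend, R 4.3.3) for models of at least 1 RPKM in at least 2 libraries, in a single fit of 8 libraries and 4 groups (4 residual and 6.96 prior degrees of freedom), two-sided, with Benjamini-Hochberg adjustment. The test was checked on simulated data. Replicates of a group differed with an SD of 0.109 to 0.118 in log2(RPKM + 1). The 20 alternatives covered pseudocounts, filters, scaling, voom in limma on the recovered reads, a replicate block and leaving out each library. Tables were handled in Python 3.11.15.

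Members and lists were chosen with earlier results of these data known. Named genes were all members, up to 3 rises and 3 falls of each list among called genes that averaged at least 5 RPKM and whose libraries did not overlap, the 3 genes most like 1 member of each role, the mutated genes and CDKA;1. Paralogs, marker genes and overlapping neighbours named besides these were chosen after their values were seen. Motif matches come from the genome sequence and are not scored, and promoters of the members other than the B-type cyclins are not reported here.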

Additional observations from a re-analysis of the deposited data

How the results depend on the processing

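No call on a single member reversed its direction under any of 20 alternatives, but the balance of some counts turned under median-ratio scaling. Members in tir1 afb123 went from 2 rises and 4 falls to 4 and 3. Inhibitors went from 6 and 4 to 3 and 4 in cry1 cry2, and from 5 and 7 to 6 and 5 in tir1 afb123. The majority direction of all tested genes turned in blue light and in cry1 cry2. Of 24 calls on single members in 4 comparisons 16 held in each alternative and 8 were lost in at least 1, and 6 of 16 other values passed in at least 1. With at least 5 RPKM required, 34 listed cell cycle genes rose in blue light (59 as reported), 23 fell in cry1 cry2 (38), and 1 replication gene fell in tir1 afb123 (0), as it did with voom weights. Under median-ratio scaling 1 member rose in cry1 cry2 (2), 9 listed genes rose there (16), 8 mitosis genes fell there (3), and 4 members rose in tir1 afb123 (2). Upper-quartile scaling gave 6 and 4 for the latter pair, and voom weights gave 5 mitosis falls. The stricter filter leaves fewer genes to test, and the causes of these changes in count were not tested.

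Leaving out single libraries gave these ranges. In cry1 cry2 against the dark wild type, 2 to 5 members rose and 0 to 1 fell, 19 to 38 listed genes rose and 1 to 3 fell, and 5 to 10 replication genes rose. In cry1 cry2 against the blue-lit wild type, 1 to 2 members rose and 1 to 3 mitosis genes fell. In blue light 1 to 2 mitosis genes fell, and in tir1 afb123 0 to 1 replication genes fell. With 1 library left in a group, that library is assumed to vary like the other groups.

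The labels number replicates 1 and 2 in each group, but the differences between replicates correlated by -0.115 to 0.137 between groups, so the numbers were not treated as pairs. With a replicate block 7 members rose in blue light, 3 fell in cry1 cry2 (4) and 4 rose in cry1 cry2 against the dark wild type (5). With the tir1 afb123 numbers crossed, an alternative chosen after seeing the data, 2 members rose and 4 fell in tir1 afb123, and 1 replication gene fell. With 2 libraries a group, small differences may be missed, and CYCB1;1 rests on 62 to 127 reads a library.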
